A study of Homo sapiens with 84 samples.

Results

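FaDu is an established line from a squamous cell carcinoma of the hypopharynx. In the comparison described here, FaDu cells were treated for 72 h with EGF high + EpEX, and cells treated for the same time with Fc served as controls. EpEX is the ectodomain of the epithelial adhesion molecule EpCAM, used as a fusion with the Fc part of an immunoglobulin, so that Fc alone carries the shared part of the molecule. The members were chosen by their labels only, as the libraries of replicates 3 and 4. They comprised 2 EGF high + EpEX libraries and 2 Fc libraries out of 84 libraries in the series, of which 41 were from FaDu and 43 from Kyse30, an esophageal squamous carcinoma line.

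Cells had been serum-starved before the agents were added and stayed without serum during treatment, in all groups. Read counts came from 3′ RNA-seq, which reads transcripts from their 3′ ends. The other FaDu libraries of replicates 3 and 4 used here were, at 72 h, 1 each of EGF high (9 nM), EGF low (1.8 nM), EpEX, and untreated cells. At 6 h, they were 2 each of EGF high, EGF low, EpEX, Fc, and untreated cells and 1 of EGF high + EpEX, and 1 library was from untreated cells at 0 h. The labels did not state whether libraries came from separate cultures, so p-values measure only the spread between these libraries, which may be technical.

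EGF binds the receptor EGFR and activates the ERK cascade, which drives immediate-early and delayed transcription factors of the AP-1 and ETS families, feedback phosphatases, and EGFR ligands. In squamous carcinoma cells, sustained EGFR activity is known for changes in adhesion, matrix contact, and keratin expression that occur in epithelial-mesenchymal transition (EMT). EpEX has been described as a ligand of EGFR, and the comparison asks what cells express when they receive both agents.

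Total counts on genes were 8332126 and 10476313 in the EGF high + EpEX libraries and 8089409 and 8804387 in the Fc libraries, within a range of 6217938 to 12442349 for the 20 FaDu libraries of replicates 3 and 4. Spearman ρ-values among these 20 libraries had a median of 0.958, compared with 0.859 among the 21 FaDu libraries of replicates 1 and 2, and 0.846 between both sets. All 12 squamous epithelial markers reached 1 CPM (read counts scaled to a common library size and composition), including KRT5, TP63, and EPCAM. Of the defining markers of other cells, DCN, LUM, PDGFRA, and PDGFRB (fibroblasts), PTPRC, CD3E, and LYZ (leukocytes), PECAM1 and KDR (endothelium), and HBB, HBA1, and HBA2 (erythroid cells) were at 0 counts in all 4 libraries. COL1A1 and COL3A1 were the fibroblast markers that reached 1 CPM, and the fibroblast list summed to 7.29 to 10.5 CPM with EGF high + EpEX and 12.5 to 13.4 CPM with Fc. VWF and CDH5, the other endothelial markers, summed to 1.40 to 1.87 CPM and 3.47 to 6.33 CPM in the same order. CD14 and CD79A were the leukocyte markers with any count, and no leukocyte marker reached 1 CPM. Libraries labelled EpEX at 6 h had counts of EGF-responsive genes as high as those labelled EGF high, which is described with the 6 h results.

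EGF high + EpEX changed 131 of 16022 genes tested in FaDu cells at 72 h, with 100 genes higher and 31 lower than in Fc-treated cells. DEGs had an absolute log2FC over 0.5 and an adjusted p no higher than 0.05 in edgeR's quasi-likelihood test with Benjamini-Hochberg adjustment over all genes, fitted on the 20 libraries of replicates 3 and 4. DEGs made up 0.818% of the genes tested, 0.624% higher and 0.193% lower, and 1086 genes had an unadjusted p under 0.05. The median log2FC was 1.28 in size for the higher and 1.35 for the lower DEGs, while the median over all genes was -0.01. A log2FC of at least 1 in size was reached by 75 of the 100 higher and 26 of the 31 lower genes, and 98 and 29 of them were protein coding. The calls were made on the libraries compared, so a lack of overlap in DEGs follows largely from the call and is no further evidence. In 130 of 131 DEGs, both EGF high + EpEX libraries lay on the same side of both Fc libraries, which was the case for 41.1% of all genes tested. The exception was INHBA, a subunit of activins, with 1.05 and 1.22 CPM in the EGF high + EpEX libraries and 100.1 and 0.542 CPM in the Fc libraries. Its call rested on replicate 3 of Fc, and without this library the log2FC was 1.05 with an adjusted p of 1.

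**Figure D1:**
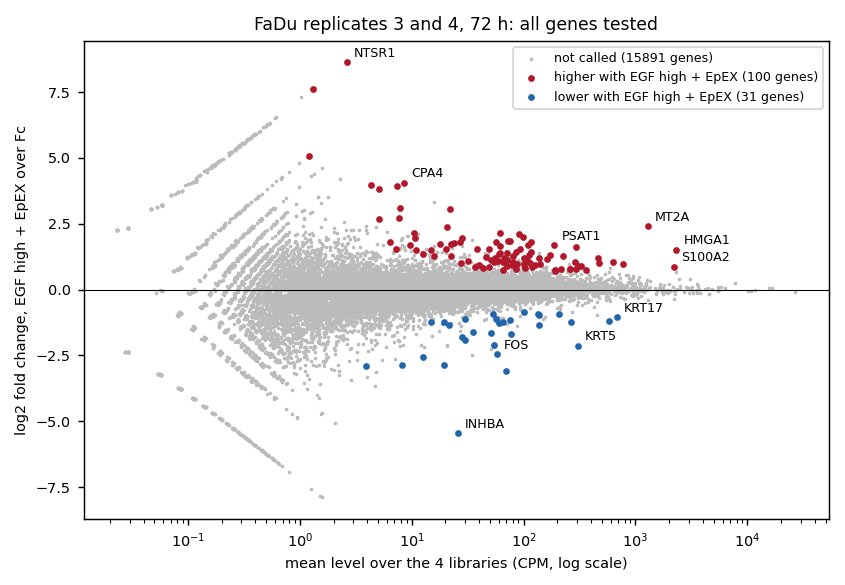
Mean level over the 4 libraries (x axis, CPM, log scale) against the log2 fold change of EGF high + EpEX over Fc at 72 h (y axis) for the 16022 genes tested, 1 point per gene. The 100 genes called higher (red) and 31 called lower (blue) lie over most of the range of levels.

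The number of DEGs depended on each of the 4 libraries. It was 69 without EGF high + EpEX replicate 3, 9 without EGF high + EpEX replicate 4, 35 without Fc replicate 3, and 26 without Fc replicate 4. A lone library was then assumed to vary like the other groups. Genes that remained called in all 4 of these fits were ETS1, MT2A, KLK6, HMGA1, HMGA2, UPP1, and LURAP1L-AS1, 7 genes in all, each of them higher with EGF high + EpEX. Of the lower DEGs, KRT5, FOSB, and H19 remained called in 3 of the 4 fits. In none of the 4 fits were 54 of the 131 DEGs called, 39 higher and 15 lower, among them DLC1, AKAP12, SCEL, ITGA3, CD55, S100A2, S100A14, S100A16, CLU, GLUL, and GBP1. A fit on all 41 FaDu libraries held replicates 1 and 2, with their wider spread, as separate groups. They entered only through the filter, the normalization, and the estimate of spread, and the same 4 libraries were compared. This fit gave 0 DEGs in the same test, with 109 genes at an unadjusted p under 0.05.

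Genes with the strongest induction encoded a carboxypeptidase, signaling adaptors, transcription factors, and secreted proteins. CPA4, a secreted carboxypeptidase on chromosome 7 (130293134 to 130324180, GRCh38), was at 9.71 and 22.3 CPM with EGF high + EpEX and at 0.806 and 1.08 CPM with Fc, and rose by a log2FC of 4.06 ± 0.67 (SE; adjusted p = 0.00559). MANCR, a long noncoding RNA, rose from 0.461 and 1.30 CPM to 7.84 and 19.7 CPM. ANGPTL4, a secreted inhibitor of lipoprotein lipase, rose from 0.230 and 1.08 CPM to 4.45 and 14.6 CPM. In these 3 genes, replicate 4 was above replicate 3 within both groups, but the groups did not overlap. The log2FC was 3.94 ± 0.81 for MANCR (adjusted p = 0.0244) and 3.82 ± 0.76 for ANGPTL4 (adjusted p = 0.019).

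LAT2, a transmembrane adaptor for tyrosine kinases, rose from 1.73 and 1.52 CPM to 12.1 and 16 CPM (log2FC 3.10 ± 0.49, adjusted p = 0.00451). DLC1, a GTPase-activating protein, rose by a log2FC of 2.70 ± 0.53 and SPOCD1 by 2.72 ± 0.53. The metallothionein MT2A, which binds zinc and copper, was among the most abundant DEGs, with 1953 and 2383 CPM after EGF high + EpEX and 451 and 362 CPM after Fc (log2FC 2.41 ± 0.30, adjusted p = 0.000829). The other 3 tested metallothioneins were not called, and metallothionein genes share sequence, so that reads matching several of them had not been counted. KLK6, a secreted serine protease on chromosome 19, had the lowest adjusted p of all genes (0.000153). It was at 110.2 and 91.8 CPM against 22.5 and 23.4 CPM, a log2FC of 2.14 ± 0.21. CLCF1, a cytokine of the IL-6 family, AKAP12, a scaffold for protein kinase A, BCAR3, an adaptor of p130Cas, and SCEL, a precursor of the cornified envelope, rose by log2FC values of 2.13, 2, 1.97, and 1.97.

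3 further genes were outside the expression limit for named genes and are given because their Fc libraries were at or near 0 counts. NTSR1, the neurotensin receptor, had 103 counts over both EGF high + EpEX libraries and 0 over both Fc libraries, and was at least 30.8-fold higher (floor of 3 counts over the group). CORO2B, an actin-binding coronin, had 49 and 0 counts and was at least 14.7-fold higher. PDE2A, a phosphodiesterase, had 46 counts and 1 count, a ratio of 41.3 with a 95% counting interval of 7.05 to 1667. These bounds and intervals cover counting error only.

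**Figure D2:**
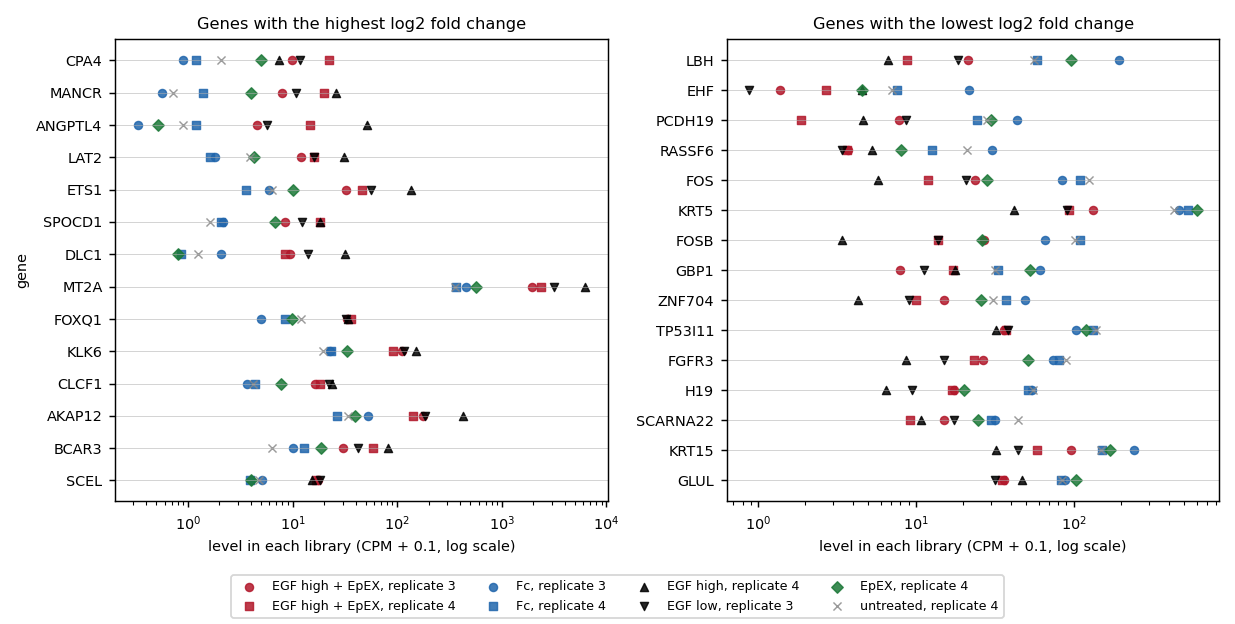
Level in each 72 h library of FaDu replicates 3 and 4 (x axis, CPM + 0.1, log scale) for 14 of the 15 genes with the highest and the 15 with the lowest log2FC among non-overlapping DEGs with a mean of at least 5 CPM (y axis). Red marks are the 2 EGF high + EpEX and blue marks the 2 Fc libraries, which do not overlap in any of the 29 genes, and the other marks are single libraries of EGF high, EGF low, EpEX, and untreated cells.

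The start site regions of the called genes were searched for the AP-1 motif, because AP-1 factors were themselves among the DEGs. RefSeq promoter sequences (GRCh38.p14, 250 bases before to 50 bases after the first listed start) matched 73 of the 100 higher and 24 of the 31 lower DEGs. The letters TGANTCA, searched on both strands, were present in 10 of 73 promoters of higher DEGs (13.7%) and in 2 of 24 of lower DEGs (8.33%). They were present in 4.72% of 10765 matched promoters of all genes tested and in 7.76% of all 27305 promoters. The promoters of CPA4 (chr7:130292911-130293210, plus strand) and S100A2 (chr1:153565795-153566094, minus strand) are shown because both genes rose and hold the motif near the start. Capitals mark TGANTCA, 48 and 15 bases before the start in CPA4 and 52 bases before it in S100A2.
CPA4: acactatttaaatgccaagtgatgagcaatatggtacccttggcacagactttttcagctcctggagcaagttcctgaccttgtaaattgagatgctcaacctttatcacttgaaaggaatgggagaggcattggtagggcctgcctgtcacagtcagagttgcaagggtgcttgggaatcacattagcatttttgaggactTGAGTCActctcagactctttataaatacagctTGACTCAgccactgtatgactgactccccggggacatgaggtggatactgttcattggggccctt
S100A2: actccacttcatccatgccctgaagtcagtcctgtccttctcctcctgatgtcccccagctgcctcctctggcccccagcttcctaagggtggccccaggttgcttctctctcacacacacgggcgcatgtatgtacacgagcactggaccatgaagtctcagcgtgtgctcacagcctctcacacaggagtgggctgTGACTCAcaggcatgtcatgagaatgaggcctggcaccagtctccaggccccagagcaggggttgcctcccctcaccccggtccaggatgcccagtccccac
A match describes the letters in this window and is no measurement of binding.

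Transcription factors of the AP-1 family changed in opposite directions. Of 12 tested members, FOSL1 rose and FOS and FOSB fell. FOSL1, a late member of the FOS family, was at 145 and 219 CPM with EGF high + EpEX and at 31.3 and 72.8 CPM with Fc (log2FC 1.8 ± 0.37, adjusted p = 0.0256). FOS, the immediate-early member, was at 23.5 and 11.9 CPM against 84.2 and 110.2 CPM (log2FC -2.47 ± 0.45, adjusted p = 0.0123). FOSB was at 26.9 and 13.7 CPM against 65.9 and 109 CPM (log2FC -2.11 ± 0.30, adjusted p = 0.00243). None of the 3 genes overlapped between the groups. MAFF, a small MAF protein, had a log2FC of 0.81 ± 0.28 and was not called.

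ETS1, a transcription factor downstream of ERK on chromosome 11 (128458761 to 128587558), rose from 5.87 and 3.47 CPM to 32.3 and 45.6 CPM (log2FC 3.06 ± 0.36, adjusted p = 0.000523). The forkhead factor FOXQ1 rose from 4.84 and 8.45 CPM to 32.9 and 36.3 CPM (log2FC 2.37 ± 0.38, adjusted p = 0.00451). The chromatin proteins HMGA1 and HMGA2, which bind AT-rich DNA, were at 3039 and 3819 CPM and at 109.5 and 127 CPM with EGF high + EpEX. With Fc, they were at 1038 and 1365 CPM and at 32.8 and 32.9 CPM. HMGA1 rose by a log2FC of 1.51 ± 0.19 (adjusted p = 0.000935) and HMGA2 by 1.85 ± 0.21 (adjusted p = 0.000523). HMGA2 and, further on, genes described as chosen after their values were seen stand outside the rule for named genes.

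Of 10 tested members of the EGFR family and its ligands, TGFA was the 1 gene called. TGFA, a ligand of EGFR, rose from 10.2 and 11.3 CPM to 27.5 and 46.2 CPM (log2FC 1.78 ± 0.33, adjusted p = 0.0134). AREG, another ligand, was at 31.9 and 26.5 CPM against 14.2 and 7.91 CPM, but its log2FC of 1.40 ± 0.47 had an adjusted p of 0.314. EGFR itself was at 429.9 and 529 CPM against 379.8 and 402 CPM (log2FC 0.29 ± 0.17, adjusted p = 0.859), and EPCAM at 360.3 and 318 CPM against 306 and 279 CPM (log2FC 0.21 ± 0.15, adjusted p = 0.956). Both genes lay slightly above the Fc libraries with a difference too small to be called. None of 13 tested genes of EpCAM cleavage, its partners, and related proteases was called, including the sheddase gene ADAM17.

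Among 19 genes of ERK feedback, PHLDA1, a pleckstrin homology-like protein, rose from 50.2 and 53.7 CPM to 131 and 204 CPM (log2FC 1.69 ± 0.31, adjusted p = 0.0125). The phosphatase genes DUSP4 and DUSP7 had log2FC values of 1.60 ± 0.40 and 1.87 ± 0.65 with adjusted p-values of 0.0815 and 0.369. LRIG1, which promotes the degradation of EGFR, was at 2.22 and 0.748 CPM against 14.9 and 3.90 CPM and was not called (adjusted p = 0.189). The median log2FC of the list was 0.16, compared with -0.01 over all genes.

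Hemidesmosomes anchor epithelial cells to the matrix. Of 9 tested genes of hemidesmosomes and laminin-332, 1 was called higher and none lower (median log2FC 0.64). In 7 of the 9, both EGF high + EpEX libraries lay above both Fc libraries, compared with 20.2% of all genes. In 1 they lay under both, compared with 20.9%. Of those above both, 2 genes without a call are given here. ITGB4 and PLEC, the integrin β4 chain and plectin that join laminin to keratin filaments, were at 269 and 407 CPM and at 176 and 177 CPM with EGF high + EpEX. With Fc, they were at 148 and 194 CPM and at 67.1 and 112 CPM, and their adjusted p-values were 0.123 and 0.116.

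Of 9 tested integrin genes, 2 were called, both higher (median log2FC of the list 0.44), compared with 0.624% of all genes called higher. ITGA3, a partner of the β1 chain in laminin receptors, rose from 107 and 156 CPM to 312 and 325 CPM (log2FC 1.28 ± 0.29, adjusted p = 0.045). ITGB5, which pairs with αv, rose from 46.1 and 59.6 CPM to 94.7 and 122 CPM (log2FC 1.03 ± 0.22, adjusted p = 0.0286). ITGB1 had a log2FC of 0.65 ± 0.17 (adjusted p = 0.0946). CD44, a hyaluronan receptor, was at 92.1 and 131 CPM against 62.1 and 28.3 CPM and was not called (log2FC 1.31 ± 0.31, adjusted p = 0.0641).

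AXL, a receptor tyrosine kinase counted here among the YAP/TAZ targets, rose from 26.7 and 36.3 CPM to 109.9 and 116 CPM (log2FC 1.84 ± 0.30, adjusted p = 0.00451). It was the 1 called gene among 19 tested targets, and CTGF, a classic target, was at 22.1 and 58.7 CPM against 51.0 and 149.7 CPM without a call. The median log2FC of the targets was 0.01. Genes of focal adhesions and the actin cytoskeleton were also present among the higher DEGs, chosen for naming after their values were seen. They included ZYX (195 and 183 CPM against 80.6 and 84.9 CPM) and PXN (333 and 443 CPM against 184 and 190.2 CPM), which encode zyxin and paxillin. MYH9, MYO10, COTL1, TMSB10, and MPRIP, which encode myosins, a coactosin, thymosin β10, and a myosin phosphatase partner, rose by log2FC values of 0.73, 1.10, 1.01, 0.98, and 0.69.

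Genes that define EMT did not change together. None of 15 tested EMT transcription factors and cadherins was called in edgeR's test, and their median log2FC was 0.03. SNAI2 was at 24.2 and 24.9 CPM against 24.4 and 21.2 CPM (log2FC 0.11 ± 0.36). CDH1, which encodes E-cadherin, was at 32.3 and 36.7 CPM against 36.5 and 41.2 CPM (log2FC -0.17 ± 0.31). VIM, which encodes vimentin, remained under 3 CPM in all 4 libraries. At such levels a small change was hardly measurable at this depth, while large changes were called in CORO2B and PDE2A (means of 1.30 and 1.20 CPM). TWIST2 had the lowest p of the list, with 23.6 and 32.4 CPM against 14.5 and 11.3 CPM (log2FC 1.12 ± 0.33, adjusted p = 0.199).

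3 published or study-derived EMT lists were described by their counts. The partial EMT (pEMT) list held 100 symbols, of which 95 matched a gene and 92 were tested. Among the 92, 5 rose and 1 fell (median log2FC 0.13). DFNA5, an older symbol of GSDME, was not matched, so that GSDME is missing from these counts. GSDME was itself called higher (log2FC 1.71 ± 0.37, adjusted p = 0.0346 in edgeR's test). Of all genes tested, 0.624% rose and 0.193% fell. Both EGF high + EpEX libraries lay above both Fc libraries in 38 of the 92, compared with 20.2% of all genes. They lay under both in 11, compared with 20.9%. The 5 genes called higher included MT2A, PRSS23, FHL2, and MYH9, and the gene that fell was INHBA, whose call rested on 1 Fc library. PRSS23, a serine protease, was at 71.1 and 115 CPM against 25.7 and 32.6 CPM (log2FC 1.67 ± 0.24, adjusted p = 0.00256). Of 135 tested genes of the EMT hallmark list, 4 rose, among them TFPI2, ITGB5, and CD59, and INHBA fell (median log2FC 0.03). Both EGF high + EpEX libraries lay above both Fc libraries in 40 of the 135 and under both in 26. TFPI2, an inhibitor of serine proteases, was at 70.6 and 76.2 CPM against 31.8 and 39.9 CPM. Of 171 genes of the EGFR-mediated EMT list, 10 rose and 4 fell, with a median log2FC of -0.08. This list was chosen by the study on these samples, from genes it called with EGF high and not with the other treatments, so that neither the number of its members called here nor their direction is independent evidence. The 10 were C19orf33, CORO2B, HMGA1, LAT2, MANCR, PDE2A, PTK6, SH3BGRL3, SH3KBP1, and TMSB10, and the 4 were H19, SCARNA22, TACC3, and ZNF704.

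Of the epithelial genes, 3 of 16 tested keratins fell and 3 of 14 tested S100 genes rose. Over all genes tested, 0.193% fell and 0.624% rose. KRT5, the basal keratin on chromosome 12 (52514575 to 52520687), was at 132 and 93.7 CPM with EGF high + EpEX and at 462 and 531 CPM with Fc (log2FC -2.14 ± 0.31, adjusted p = 0.00256). KRT15, a keratin of basal and progenitor cells, was at 95.8 and 58.3 CPM against 242 and 152 CPM (log2FC -1.35 ± 0.27, adjusted p = 0.019). KRT17, a keratin induced by injury, was at 422 and 461 CPM against 774 and 1054 CPM (log2FC -1.05 ± 0.21, adjusted p = 0.0183). Fc libraries were above both EGF high + EpEX libraries in all 3 genes, and none of the 16 tested keratins was called higher. KRT5 and KRT17 were also the 2 called genes of the 12 squamous epithelial markers, whose summed level was 3777 and 4108 CPM against 4580 and 4912 CPM.

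3 of 14 S100 genes rose, and their genes lie side by side on chromosome 1. S100A2 was at 3160 and 2549 CPM against 1677 and 1440 CPM, S100A16 at 434 and 363 CPM against 221 and 213 CPM, and S100A14 at 284 and 268 CPM against 152 and 166 CPM. Their log2FC values were 0.87 ± 0.16, 0.88 ± 0.16, and 0.79 ± 0.15, with adjusted p-values of 0.0123, 0.0123, and 0.0169. S100P was at 16.5 and 12.8 CPM against 5.76 and 1.41 CPM and was not called (adjusted p = 0.665).

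Of 19 tested genes of the cornified envelope and its proteases, KLK6 was called and 11 had a log2FC under 0 (median -0.18). Among 19 squamous transcription factors, EHF fell. EHF, an epithelial ETS factor, was at 1.29 and 2.62 CPM against 21.5 and 7.48 CPM (log2FC -2.87 ± 0.62, adjusted p = 0.0355). SOX2, a lineage factor of squamous cancers, was at 25.3 and 10.0 CPM against 139 and 30.6 CPM without a call (adjusted p = 0.379). None of 12 desmosomal genes was called (median log2FC 0.03).

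**Figure D3:**
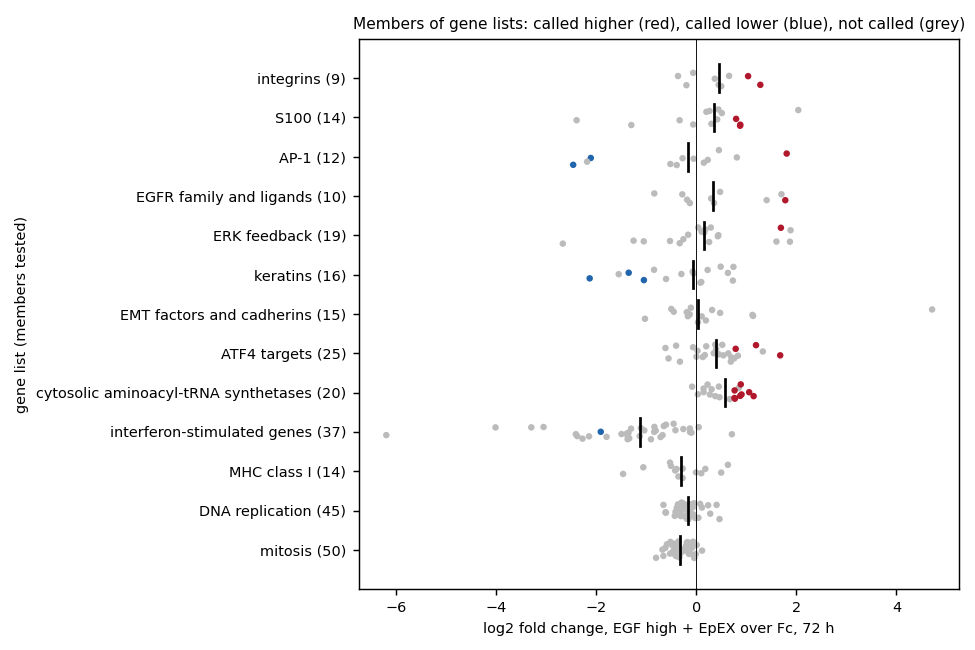
Log2 fold change of EGF high + EpEX over Fc at 72 h (x axis) for the tested members of gene lists (y axis, number tested in brackets), 1 point per gene, red for genes called higher, blue for called lower, and grey for not called, with black bars at the medians. The interferon-stimulated and mitosis lists lie mostly left of 0 with 1 and 0 calls, and the aminoacyl-tRNA synthetases lie right of 0 with 8 calls.

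The genes with the strongest decrease encoded a transcriptional cofactor, cell adhesion proteins, and signaling proteins. LBH, a cofactor of limb bud and heart development, was at 21.3 and 8.70 CPM against 193 and 58.5 CPM (log2FC -3.08 ± 0.65, adjusted p = 0.0284). PCDH19, a protocadherin, was at 7.72 and 1.78 CPM against 43.6 and 24.5 CPM, and RASSF6, a Ras association domain protein, at 3.63 and 3.55 CPM against 30.4 and 12.6 CPM. Their log2FC values were -2.87 ± 0.61 and -2.58 ± 0.59. Replicate 3 of Fc was above replicate 4 in LBH, EHF, PCDH19, and RASSF6, but both Fc libraries were above the EGF high + EpEX libraries. ZNF704, a zinc finger protein, and TP53I11 fell by 1.8 and 1.69 on the log2 scale. H19, an imprinted noncoding RNA, was at 17.4 and 16.9 CPM against 54.2 and 51.5 CPM (log2FC -1.62 ± 0.25, adjusted p = 0.00394). GLUL, the glutamine synthetase, was at 35.9 and 34.9 CPM against 88.7 and 82.7 CPM (log2FC -1.27 ± 0.22, adjusted p = 0.00733).

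Several genes of amino acid supply rose. Aminoacyl-tRNA synthetases charge tRNAs with amino acids, and several of their genes are known targets of the transcription factor ATF4, together with transporters and enzymes of serine synthesis. The list of 20 cytosolic synthetases was added after values were seen. Of its 20 members, 8 rose and none fell, and 19 had a log2FC above 0, compared with 7800 of 16022 genes tested. The median log2FC was 0.56, and in 17 of 20 genes the EGF high + EpEX libraries lay above both Fc libraries, compared with 20.2% of all genes. Without EGF high + EpEX replicate 3 or Fc replicate 4, none of the 8 was called, without EGF high + EpEX replicate 4 only GARS, and without Fc replicate 3 only GARS, WARS, and EPRS. Summed over the list, the level was 3711 and 3417 CPM against 2559 and 2274 CPM.

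GARS, the glycyl-tRNA synthetase, was at 246 and 199.6 CPM against 122 and 79.7 CPM (log2FC 1.14 ± 0.18, adjusted p = 0.00451). WARS was at 88.0 and 87.9 CPM against 53.4 and 31.3 CPM, MARS at 93.3 and 90.3 CPM against 54.4 and 43.9 CPM, and TARS at 328 and 322 CPM against 212 and 171 CPM. The remaining called genes were SARS, YARS, EPRS, and LARS, with log2FC values of 0.89, 0.87, 0.77, and 0.76. SEs of the 8 log2FC values were between 0.15 and 0.22. The letters TGATGNAA, the composite motif of ATF4 and C/EBP, were searched on both strands and did not overlap TGANTCA in the promoters shown. They were present in 6 of 13 matched promoters of the synthetases (46.2%), in 9 of 73 of the higher DEGs (12.3%), in 1 of 24 of the lower DEGs (4.17%), and in 1.71% of the matched promoters of all genes tested. Over all 27305 promoters, the share was 3.67%. Of the 6 synthetases with the motif, MARS and TARS were called, and AARS, CARS, IARS, and NARS were not. The promoters of MARS (MARS1 in RefSeq, chr12:57487818-57488117, plus strand) and TARS (TARS1, chr5:33440715-33441014, plus strand) are shown because both genes rose and hold the motif at the start. Capitals mark its reverse complement TTGCATCA, beginning 4 bases before the start in MARS and 2 bases after it in TARS.
MARS: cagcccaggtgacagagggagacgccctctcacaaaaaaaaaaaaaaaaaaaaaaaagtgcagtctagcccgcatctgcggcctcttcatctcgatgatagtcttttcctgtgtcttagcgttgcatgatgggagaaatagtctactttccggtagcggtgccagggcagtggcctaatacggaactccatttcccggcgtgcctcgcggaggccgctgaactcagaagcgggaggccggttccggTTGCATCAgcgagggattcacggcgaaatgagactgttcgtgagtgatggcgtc
TARS: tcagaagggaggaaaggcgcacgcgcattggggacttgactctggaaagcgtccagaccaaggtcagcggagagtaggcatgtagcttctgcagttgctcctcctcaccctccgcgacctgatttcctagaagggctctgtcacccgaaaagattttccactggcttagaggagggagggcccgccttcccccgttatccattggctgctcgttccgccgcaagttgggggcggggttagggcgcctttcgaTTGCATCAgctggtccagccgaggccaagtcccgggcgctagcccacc

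**Figure D4:**
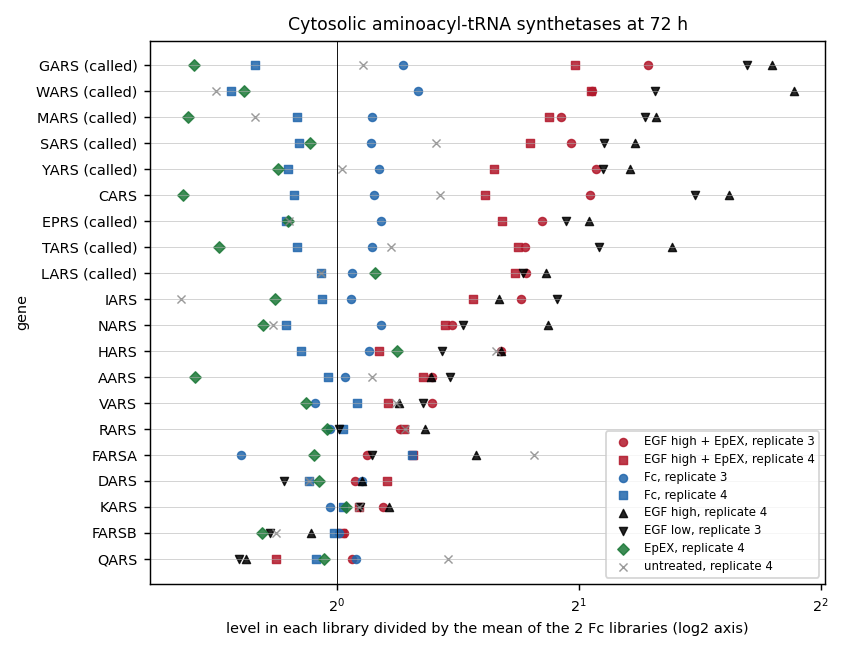
Level of 20 cytosolic aminoacyl-tRNA synthetase genes (y axis) in each 72 h library divided by the mean of the 2 Fc libraries (x axis, log2 axis), with called genes marked. In 17 genes both EGF high + EpEX libraries lie above both Fc libraries.

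Of 25 ATF4 targets, 3 rose and none fell (median log2FC 0.39), compared with 0.624% and 0.193% of all genes tested. Both EGF high + EpEX libraries lay above both Fc libraries in 13 of the 25 and under both in 4. The shares of all genes tested were 20.2% and 20.9%. PSAT1, an enzyme of serine synthesis, was at 270.4 and 301 CPM against 108 and 71.1 CPM (log2FC 1.68 ± 0.26, adjusted p = 0.00394). SLC7A11, the cystine transporter, was at 162 and 120.4 CPM against 72.2 and 51.6 CPM (log2FC 1.19 ± 0.25, adjusted p = 0.0296). TRIB3, a pseudokinase of the stress response, was at 113 and 105 CPM against 66.3 and 60.5 CPM (log2FC 0.79 ± 0.16, adjusted p = 0.0233). PCK2, the mitochondrial PEP carboxykinase, was at 20.2 and 16.5 CPM against 9.79 and 4.88 CPM and was not called (adjusted p = 0.0596). Further DEGs of amino acid metabolism, chosen after their values were seen, were SLC6A9 (glycine transporter), SLC38A1 (glutamine transporter), BCAT1 (branched-chain aminotransferase), GPT2 (alanine aminotransferase), and MTHFD1L (mitochondrial folate enzyme). Their log2FC values were 1.73, 0.77, 1.35, 1.20, and 0.86. SLC7A11, TRIB3, SLC38A1, GPT2, and MTHFD1L lost their call whichever library of the comparison was left out.

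Most interferon-stimulated genes had a log2FC under 0, and the test called 1 of them. Of 37 tested genes, 35 had a log2FC under 0 and the median was -1.13, compared with 8146 genes under 0 and a median of -0.01 among 16022 genes tested. In 24 of the 37, both EGF high + EpEX libraries lay under both Fc libraries, compared with 20.9% of all genes. GBP1, an interferon-induced GTPase, fell from 61.5 and 33.0 CPM to 7.84 and 17.0 CPM (log2FC -1.91 ± 0.43, adjusted p = 0.045). IFITM2 and IFITM3, membrane proteins that restrict virus entry, were at 26.9 and 49.6 CPM and at 286 and 378 CPM with EGF high + EpEX. With Fc, they were at 58.0 and 100.1 CPM and at 425 and 619 CPM, with adjusted p-values of 0.161 and 0.34. The summed level of the list was 549 and 734 CPM against 973 and 1246 CPM. In the other 72 h libraries it was 725 CPM with EGF high, 588 CPM with EGF low, 973 CPM with EpEX, and 1673 CPM in untreated cells. None of 14 MHC class I genes was called (median log2FC -0.32).

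Among 12 tested complement genes, CD59 and CD55, inhibitors of complement on the cell surface, rose, and CLU, which encodes the secreted protein clusterin, fell. Over all genes tested, 0.624% rose and 0.193% fell. CD59 was at 94.1 and 136 CPM against 52.3 and 42.4 CPM (log2FC 1.28 ± 0.22, adjusted p = 0.00739). CD55 was at 44.6 and 42.0 CPM against 19.1 and 21.7 CPM (log2FC 1.08 ± 0.20, adjusted p = 0.0135). CLU was at 49.7 and 43.9 CPM against 110.3 and 101 CPM (log2FC -1.17 ± 0.20, adjusted p = 0.00787).

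Most genes of the cell cycle had a log2FC slightly under 0, without calls. Of 50 mitosis genes, 48 had a log2FC under 0, the median was -0.32, and in 30 both EGF high + EpEX libraries lay under both Fc libraries. Of all genes tested, 8146 of 16022 had a log2FC under 0 and 20.9% lay under both Fc libraries. None was called, and NUSAP1, a spindle protein, had the lowest p, with 176 and 147 CPM against 263 and 249 CPM (log2FC -0.66 ± 0.16, adjusted p = 0.0658). PLK1, a mitotic kinase, was at 132 and 102 CPM against 105 and 151 CPM, with overlap (log2FC -0.13 ± 0.31). Summed over the list, the level was 5990 and 4669 CPM with EGF high + EpEX and 6650 and 6655 CPM with Fc. In the other 72 h libraries it was 2215 CPM with EGF high, 5277 CPM with EGF low, 8460 CPM with EpEX, and 6957 CPM in untreated cells. Of 45 DNA replication genes, 38 had a log2FC under 0 (median -0.18), and none was called. In these bulk samples, fewer cells in a phase and less RNA per cell cannot be told apart.

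CDKN1A, the cyclin-dependent kinase inhibitor p21, rose from 9.67 and 6.83 CPM to 22.5 and 32.1 CPM (log2FC 1.73 ± 0.35, adjusted p = 0.0233), and was the 1 called gene among 21 p53 targets (median log2FC 0.02). FGFR3, a receptor of fibroblast growth factors on chromosome 4, was at 26.6 and 23.2 CPM against 74.2 and 80.3 CPM (log2FC -1.63 ± 0.26, adjusted p = 0.00451). SCARNA22, a small Cajal body RNA within 250 kb of FGFR3, fell by 1.36 ± 0.28 on the log2 scale. It lies inside NSD2 on the same strand, and NSD2 had a log2FC of -0.13 and was not called. Whether reads of SCARNA22 came from a transcript of NSD2 was not tested. TACC3, a spindle protein next to FGFR3, was at 321 and 384 CPM against 619.5 and 1011 CPM (log2FC -1.21 ± 0.23, adjusted p = 0.0151).

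The remaining lists had few or no calls. Among 32 glycolysis and hypoxia genes ANGPTL4 was called (median log2FC 0.05), and VEGFA, an angiogenic factor, was at 46.6 and 51.2 CPM against 29 and 20.6 CPM with an adjusted p of 0.132. None was called among 33 genes of cholesterol and fatty acid synthesis, 14 metalloproteinases and inhibitors (median log2FC -0.23), 22 chemokines and cytokines (-0.31), and 18 NF-kB targets (0.03). Of 9 urokinase and serpin genes (median 0.93), none was called, and 7 had a log2FC above 0, compared with 7800 of 16022 genes tested. In 5 of the 9, both EGF high + EpEX libraries lay above both Fc libraries, compared with 20.2% of all genes. PLAT, a plasminogen activator, was the 1 member under both Fc libraries. It was at 19.7 and 10.8 CPM against 45.1 and 33.9 CPM (adjusted p = 0.0682). Among 24 TGF-β responders INHBA was called (median -0.07), and SMAD3 had a log2FC of 0.85 ± 0.21 (adjusted p = 0.0682). Medians of lists with members at 0 counts in a group, which were the EMT factor, interferon, EGFR-mediated EMT, and EMT hallmark lists, did not differ when these members were set at their bound.

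Single agents at 72 h were available as 1 library each in replicates 3 and 4, so that comparisons with them assume that the lone library varies like the other groups. All comparisons with EGF high + EpEX share its 2 libraries. Against EGF high, 104 genes were called (0.649%), 55 higher and 49 lower with the combination. Of the 100 DEGs higher than Fc, 15 were called lower than EGF high and none higher, with a median log2FC of -0.64 between the 2 treatments. ETS1 was at 135 CPM, PHLDA1 at 629 CPM, MT2A at 6271 CPM, and CDKN1A at 174 CPM, each above both EGF high + EpEX libraries. These genes were lower in the combination than with EGF high by log2FC values of -1.79, -1.91, -1.53, and -2.67 (adjusted p = 0.0218, 0.0148, 0.0406, and 0.00255).

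The genes with the largest differences from EGF high included 2 EGFR ligands. HBEGF was at 15.7 and 24.9 CPM in the combination and at 216 CPM with EGF high (log2FC -3.41, adjusted p = 0.00161), while its Fc libraries were at 24.9 and 7.15 CPM. AREG was at 189 CPM with EGF high (log2FC -2.70, adjusted p = 0.0158). In the other direction, FOSB was at 3.33 CPM with EGF high and was higher in the combination (log2FC 2.60, adjusted p = 0.00761), as was FGFR3 (8.57 CPM with EGF high, log2FC 1.54, adjusted p = 0.0486). KRT5, at 41.7 CPM with EGF high, did not pass the test against it (log2FC 1.44, adjusted p = 0.133). In the EGF high library, 85 of the 100 higher DEGs were above both EGF high + EpEX libraries and 4 were under both. Of the 31 lower DEGs, 19 were under both and 10 above both. The DEGs were chosen on the EGF high + EpEX libraries, which affects these counts, and no test was made of them.

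Against EGF low, 0 genes were called in edgeR's test, 315 genes had an unadjusted p under 0.05, and DESeq2 called 6. The EGF low library lay within the range of the combination or near it for many DEGs, with 50 of 100 higher DEGs above both EGF high + EpEX libraries and 14 under both. MT2A was at 3144 CPM, HMGA1 at 3323 CPM, KRT5 at 90.6 CPM, and FOS at 20.9 CPM in this library. A comparison with 1 library that finds no DEG does not show that both treatments acted alike.

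Against EpEX alone, 26 genes were called (0.162%), 23 higher (0.144%) and 3 lower with the combination. Of the 100 higher DEGs, 18 were called in this comparison. KRT5 was at 604 CPM with EpEX, GLUL at 103 CPM, and TXNIP, an inhibitor of thioredoxin, at 256 CPM, and these were the 3 genes called lower in the combination (log2FC -2.42, -1.54, and -1.46). Against untreated cells, 87 genes were called (0.543%), 53 higher and 34 lower, and of the DEGs against Fc, 36 were called higher and 16 lower. Fc-treated and untreated cells differed in 0 genes in edgeR's test (918 with an unadjusted p under 0.05) and in 1 gene in DESeq2.

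The direction of the 131 DEGs was also read in 72 h libraries that share none with the comparison, as single differences in log2(CPM + 1) without a test. In EGF high minus untreated cells, 100 of 100 higher DEGs lay above 0, compared with 45.9% of all genes, and 29 of 31 lower DEGs lay under 0, compared with 52.5%. In EGF low minus untreated cells, the counts were 99 of 100 and 29 of 31 (47.1% and 51.2% of all genes). In EpEX minus untreated cells, they were 59 of 100 and 21 of 31 (49.1% and 49.3%). The median differences of the higher DEGs were 2.03, 1.44, and 0.13 in this order, and those of the lower DEGs -1.96, -1.57, and -0.30. All 3 differences use the same untreated library.

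The response of the 72 h DEGs at 6 h was measured with EGF high against untreated cells, with 2 libraries each and no library shared with the 72 h comparison. At 6 h, 491 genes were called (3.06%), 367 higher (2.29%) and 124 lower. Of the 100 DEGs higher at 72 h, 93 had a 6 h log2FC above 0, compared with 48.5% of all genes tested, and 43 were called higher at 6 h (43% of the 72 h calls and 11.7% of the 6 h calls). They included ETS1, FOSL1, PHLDA1, ANGPTL4, MT2A, HMGA2, KLK6, and S100A2. Of the 31 lower DEGs, 24 had a 6 h log2FC under 0, compared with 8088 of 16022 genes tested. Called lower were 4 of them, namely IRF2BPL, SCARNA22, SYT8, and TXNIP, compared with 0.774% of all genes. GBP1, KRT17, and PCDH7 were called higher at 6 h and lower at 72 h.

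Whether the 72 h effect differed from the 6 h effect was tested as a difference of log2FC values, and 51 genes were called (0.318%), 7 higher at 72 h (0.0437%) and 44 lower. The difference also includes the change of agent, from EGF high to EGF high + EpEX, and of control, from untreated to Fc, which cannot be told apart from the time. PCDH7, a protocadherin, was at 26.1 and 18.4 CPM with EGF high at 6 h against 0.464 and 0.711 CPM in untreated cells. At 72 h, it was at 1.29 and 0.561 CPM with EGF high + EpEX against 8.98 and 4.66 CPM with Fc (difference -8.11, adjusted p = 2.04e-05). KRT17 was at 3070 and 3322 CPM against 603 and 896 CPM at 6 h, and its log2FC of 2.09 at 6 h and -1.05 at 72 h differed by -3.14 (adjusted p = 2.06e-05). GBP1 had a log2FC of 3.45 at 6 h and -1.91 at 72 h (difference -5.36, adjusted p = 0.000419). KRT5 had a log2FC of -0.05 at 6 h, which differed from that at 72 h by -2.08 (adjusted p = 0.0415).

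PRSS23 and PTK6, a kinase of the BRK family, were among the 7 genes with a higher effect at 72 h (differences 2.23 and 1.85, adjusted p = 0.004 and 0.0147). LURAP1L-AS1, an antisense RNA, had the largest difference of this kind (4.08, adjusted p = 0.00882). It was at 8.78 and 7.39 CPM against 0.230 and 0.758 CPM at 72 h and between 10.9 and 13.7 CPM in the 4 libraries at 6 h. The strand setting of the counting is not given in the sources used here, so that reads of this gene and of its sense partner may not be told apart. The 72 h induction of PSAT1 (6 h log2FC 0.03), BCAT1 (0.36), and LARS (0.00) was not called different from that at 6 h (adjusted p = 0.062, 0.223, and 0.224).

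**Figure D5:**
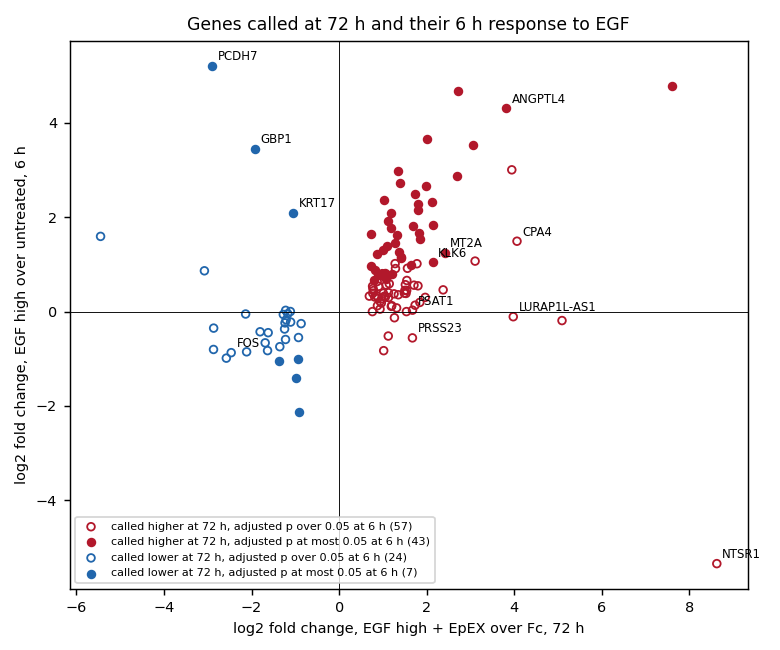
Log2 fold change of EGF high + EpEX over Fc at 72 h (x axis) against that of EGF high over untreated cells at 6 h (y axis) for the 131 genes called at 72 h (red higher, blue lower, filled where the adjusted p at 6 h was no higher than 0.05). Of the 100 genes higher at 72 h, 93 lie above 0 at 6 h, and GBP1, KRT17, and PCDH7 lie low at 72 h and high at 6 h.

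At 6 h, the library of EGF high + EpEX and both EpEX libraries differed in the levels of EGF-responsive genes. HBEGF was at 171 and 279 CPM in the libraries labelled EpEX, at 123 and 186 CPM with EGF high, at 31.9 CPM in the library labelled EGF high + EpEX, and at 16.5 and 17.2 CPM with Fc. AREG was at 339 and 662 CPM, 229 and 585 CPM, 87.5 CPM, and 15.9 and 26.8 CPM in the same order. At 72 h, the EpEX library had 4.62 CPM of HBEGF and 6.17 CPM of AREG. Of the 100 higher DEGs, 90 lay above Fc in the mean of the 6 h EpEX libraries, compared with 47.5% of all genes, and 84 in the 6 h EGF high + EpEX library, compared with 50.5%. The labels were used as deposited, and the 72 h comparison includes none of these libraries except through the estimate of the spread.

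In Kyse30 cells, the same comparison at 72 h called 0 genes in edgeR's test in a fit with both cell lines (1003 with an unadjusted p under 0.05) and 0 in DESeq2, while the FaDu comparison in this fit called 41 of 19634 genes (0.209%), 29 higher and 12 lower (0.0611%). The difference between FaDu and Kyse30 was called in 0 genes in edgeR (760 with an unadjusted p under 0.05) and in 13 in DESeq2. Of the 100 higher DEGs, 71 had a log2FC above 0 in Kyse30, compared with 48.6% of all genes, with a median of 0.18. Of the 31 lower DEGs, 15 had a log2FC under 0 and 16 above 0, compared with 7641 under 0 among 15752 genes with a value. KLK6 had a log2FC of 0.87 ± 0.49 and KRT5 of 0.17 ± 0.52 in Kyse30.

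The FaDu libraries of replicates 1 and 2 held 1 EGF high + EpEX library (replicate 2) and 1 Fc library (replicate 1) at 72 h, and they differed in markers of cell state. VIM was at 7.57 CPM, here scaled by the total alone, in the former and at 2075 in the latter, CDH1 at 209 and 7.63, EPCAM at 193 and 44.7, and AXL at 6.06 and 939. In the difference of these 2 libraries, 22 of the 100 higher DEGs lay above 0 and 77 under 0, compared with 46.2% of all genes above 0. Of the 31 lower DEGs, 16 lay under 0, compared with 7148 of 16022 genes tested. This difference was not tested, and treatment cannot be told apart from what set these libraries apart.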

How the data were processed

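RNA was measured by 3′ RNA-seq (QuantSeq 3′ FWD), and the authors deposited 1 table of counts per library for 58395 genes, neither normalized nor pooled over replicates. The submitters' processing notes name hg38, STAR, and HTSeq. Versions, the strand setting, and the annotation release are not given in the sources used here. Reads matching several positions, 41.0% to 51.3% in FaDu replicates 3 and 4, had not been counted, and these summary lines were left out of library sizes.

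Symbols came from GENCODE 29 and matched 58275 identifiers. Counts were tested with edgeR 4.0.16 in R 4.3.3 (TMM, filterByExpr with a minimum count of 10 and a total of 15, quasi-likelihood F test, Benjamini-Hochberg over all genes). The fit held the 20 FaDu libraries of replicates 3 and 4 with 1 coefficient per condition. SEs were derived from the F statistic. Calls needed an absolute log2FC over 0.5 and an adjusted p no higher than 0.05. Fitted values were kept to 6 significant digits. Single libraries were compared as log2(CPM + 1). Replicates of Fc and of EGF high + EpEX differed by more than sampling noise (chi-square per degree of freedom 10.6 and 11.7).

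Named were the 15 highest and 15 lowest log2FC among called genes without overlap and with a mean of at least 5 CPM, up to 4 members of each list with the lowest p, genes the study names, and the 5 highest and 5 lowest calls of other contrasts, of which a selection is printed. Some genes that met this rule are not reported here. Members and lists were chosen with earlier results of these data known. Alternatives were DESeq2 1.42.0, other normalization and filters, other library sets, a replicate block, and leaving out each library. In simulated data of 15079 genes for this comparison, with 200 genes changed, edgeR recovered 40% of changes at a log2FC of 1 and 90% at 2, with 11 false calls. This was a single run in which only the EGF high + EpEX group was changed. The changed genes had a mean of at least 5 CPM, so that recovery at lower levels was not simulated.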

Additional observations from a re-analysis of the deposited data

How the results depend on the processing

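The comparison of EGF high + EpEX with Fc gave 131 DEGs (100 higher, 31 lower). DESeq2 gave 207 (154 and 53), no filter on low counts 316 (237 and 79), and a fit of only the 4 libraries 290 (196 and 94). The same 4 libraries compared in a fit on all 41 FaDu libraries gave 0 (0 and 0). With Fc and untreated cells together as control, 51 genes were lower. Without 1 library at a time, the number of DEGs ranged from 9 to 69, with 9 to 59 higher and 0 to 10 lower. The log2FC of INHBA was 1.05 without Fc replicate 3 and -6.44 without Fc replicate 4. In the order of DESeq2, no filter, and replicate block, calls were 289, 364, and 176 against EGF high (104 in the report), 6, 11, and 2 against EGF low (0), 127, 148, and 105 against EpEX (26), 355, 587, and 300 against untreated cells (87), and 111, 173, and 102 for the difference between 72 h and 6 h (51). For Fc against untreated cells (0), DESeq2 gave 1 and no filter 91. For FaDu against Kyse30 (0), DESeq2 gave 13, RLE size factors 1, no filter 62, and the replicate block 18. No filter gave 15 calls in Kyse30 (0). For FaDu in the fit with both lines (41), DESeq2 gave 79, no filter 150, and the replicate block 93. The causes of these differences were not tested.

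Replicate numbers were shared between groups, but the labels tie them to no culture or day. Deviations of same-numbered libraries correlated with a median of 0.0392 over 21 pairs of conditions (-0.036 to 0.241). With the replicate block, 246 genes were called (180 higher, 66 lower), and the 131 DEGs were all among them. With 2 libraries per group at these depths, small changes were detected in part only, as the share recovered in simulated data shows for genes with a mean of at least 5 CPM.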

Other observations

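Called genes lay near each other in several places. Within 250 kb, 9 pairs of DEGs were formed by 12 genes, and all 9 pairs had the same direction. They were S100A2, S100A16, and S100A14 (higher), MTHFD1L and AKAP12 (higher), KRT15 and KRT17 (lower), SYT8 and H19 (lower), and TACC3, FGFR3, and SCARNA22 (lower). The groups of 3 genes gave several of the pairs. Such pairs were not counted among all genes tested, and 100 of the 131 DEGs were higher. Neither the number of pairs nor their shared direction therefore has a background here. Around FGFR3, in a window chosen after values were seen (chr4:1543293-2058872, GRCh38), 13 genes were tested and 3 called. SLBP, LETM1, NSD2, and NELFA, which lie in the same window, had log2FC values of -0.01, 0.30, -0.13, and 0.16, and TMEM129 had -0.88 (adjusted p = 0.202 in edgeR's test).

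Among the DEGs, the Fc libraries differed most from each other in INHBA, by a ratio of 185 between replicates 3 and 4, and the next were ANGPTL4 (4.70), FYN (3.37), and LBH (3.29). The EGF high + EpEX libraries differed by a ratio of 4.35 in PCDH19.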
